A study of Mus musculus with 26 samples.

Results

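The response of wild-type (WT) mouse keratinocytes to IL17A and TNFα was described across all expressed genes, using 10 of the 26 libraries of a bulk RNA sequencing experiment, from 5 of its 13 mice. Members were all libraries whose labels give the WT genotype. Of these, 5 were kept under basal conditions and 5 were treated with both cytokines, and no measured value entered the choice. Keratinocytes, which form the epidermis, were isolated as primary cells from C57BL/6NJ mice aged 2 days and were grown for 4 days in EpiLife medium with HKGS supplement, 0.06 mM CaCl2 and primocin at 7% CO2. IL17A and TNFα were added together at 20 ng/ml each for 24 h, so that the effect of either cytokine alone cannot be told apart from that of the other. A basal and a treated library came from each mouse and share its number, and the sex of the mice was not recorded. The remaining 16 libraries came from 8 *Pla2g4d*-deficient (KO) mice of the same strain and are used below to share the estimate of the spread, in the filter on low counts and the mean level of each gene, and in 1 test of the difference between genotypes.

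IL17A and TNFα are cytokines of T cells and other leukocytes that act on the epidermis in psoriasis and in the defence against fungi and bacteria. TNFα signals through its receptors to the NF-κB transcription factors, and IL17A signals through a receptor pair and the adaptor Act1, which also stabilises the mRNAs of many inflammatory genes. Keratinocytes answer with chemokines that attract neutrophils, with antimicrobial proteins and with changes in their own programme of cornification, in which basal cells stop dividing and build the keratin and lipid barrier of the skin.

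The WT libraries held between 42072745 and 72562322 counts, and total counts overlapped between the treatments (two-sided exact permutation test over 5 against 5 libraries, p = 0.5). Genes over 1 CPM numbered 12821 ± 187 in basal and 13006 ± 58.7 in treated libraries (same exact test, p = 0.0238, adjusted p = 0.0357), and without WT2 the difference fell from 184.4 to 93 genes (p = 0.0857). With the libraries paired by mouse the number rose in 4 mice and fell in WT1 (12934 to 12920), and an exact sign-flip test gave p = 0.125. The basal library of mouse WT2 stood apart from the others. It lay at -75 on the second principal component of the 10 WT libraries, where the other 9 lay between -15.5 and 38.1, and it had the fewest genes over 1 CPM (12499, against 12815 to 12946 in the other basal libraries). Values without it are given where they change a statement. CPM are counts scaled to a common library total after TMM normalization and do not correct for gene length, so they are compared between libraries and not between genes. Markers of the labelled cell type were abundant. The summed level of 8 basal keratinocyte markers lay between 40930 and 45650 CPM in basal and between 33180 and 35540 CPM in treated libraries. Of 23 leukocyte markers, 10 passed the filter. All 23 together lay between 31.6 and 41.6 CPM in basal and between 35.1 and 58.5 CPM in treated libraries. *Cd3d*, *Cd207*, *H2-Aa*, *Cpa3* and *Mcpt4* were at 0 in all WT libraries. Fibroblast markers summed to at most 20.6 CPM, and endothelial markers to at most 10.9 CPM with *Cdh5*, *Cldn5* and *Emcn* at 0. Melanocyte markers were present throughout, at 584 to 819 CPM in basal and 503 to 722 CPM in treated libraries, and 4 of 11 fell. The summed level of 12 Merkel, nerve, fat and muscle cell markers lay between 5.59 and 6.93 CPM in basal and between 10.1 and 13.7 CPM in treated libraries, and 3 of 6 tested rose. The part of these cells in the results was not tested. In bulk samples, fewer cells of a type and less RNA per cell cannot be told apart.

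Treatment changed 2349 of 16893 tested genes, 13.9% of them, where a call required a change of more than 1.5-fold and an adjusted p under 0.1 (edgeR's quasi-likelihood test, Benjamini-Hochberg adjustment over all tested genes). This test did not pair the libraries by mouse, and a fit with the mouse as a replicate block called 2459 genes. Of the 2349 genes, 1461 rose (8.65%) and 888 fell (5.26%), and both shares serve as the background for the gene lists below. Among the risen genes 273 exceeded 4-fold and 49 exceeded 16-fold, against 131 and 18 of the fallen genes. The genes that rose held a median of 4.15% of all counts in basal and 9.31% in treated libraries, and the genes that fell held 4.43% and 2.22%. The 5 treated libraries lay above all 5 basal libraries for 962 risen genes and below them for 615 fallen genes, while 20.5% of all tested genes showed no overlap in either direction. When genes were split into 4 bins of equal size by their level, calls were most frequent in the bin with the second lowest level, where 12.1% of genes rose and 9.31% fell, and least frequent in the bin with the highest (6.77% and 2.37%). The 100 genes with the most counts took 24.4% ± 0.484 of a basal and 22.6% ± 0.227 of a treated library (SD, n = 5), a difference that passed the two-sided exact permutation test (p = 0.00794, adjusted p = 0.0238 over 3 library values, the smallest p that 5 against 5 libraries allow being 0.00794). This share fell in all 5 mice, for which an exact sign-flip test over pairs gave p = 0.0625. That is the smallest p this test can give with 5 pairs. It could not have reached 0.05, so it does not decide whether the call holds with the mice paired.

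**Figure D1:**
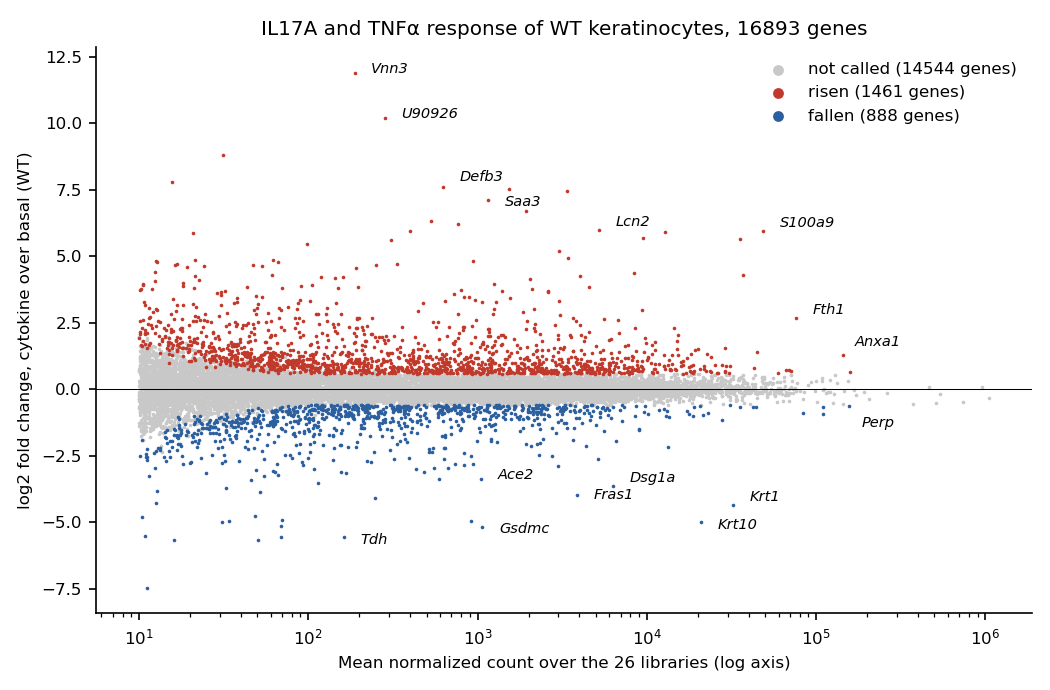
log2 fold change of WT keratinocytes with IL17A and TNFα over basal conditions (vertical axis) against the mean normalized count over the 26 libraries (horizontal axis, log scale) for 16893 genes. The 1461 risen genes (red) lie above and the 888 fallen genes (blue) below the line of no change, and calls occur at all levels.

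Genes that receive the signal were called about as often as all tested genes. Of 26 receptor and adaptor genes of the IL17 and TNF pathways, 3 rose (11.5%) and 1 fell (3.85%), with a median log2 fold change of 0.08. *Il17ra* had 20.5 ± 2.31 CPM in basal and 22.3 ± 1.09 CPM in treated libraries (log2 fold change 0.12) and was not called. *Il17rc* (-0.38), *Traf3ip2*, which encodes Act1 (0.52), and *Tnfrsf1a*, the main TNF receptor of epithelial cells (-0.10), were not called either. *Il17rc* and *Traf3ip2* missed only the fold change threshold (adjusted p = 8.27e-05 and 1.13e-10 in edgeR's test). *Tnfrsf1b*, the second TNF receptor, rose from 0.206 ± 0.140 to 1.67 ± 0.336 CPM, and *Il17rb*, which binds IL25, fell from 3.47 ± 0.741 to 1.31 ± 0.473 CPM. All 5 NF-κB subunit genes, *Rela*, *Relb*, *Rel*, *Nfkb1* and *Nfkb2*, stayed below a fold change of 1.5, with log2 fold changes between 0.10 (*Rel*) and 0.58 (*Relb*). Of these, *Rela*, *Relb*, *Nfkb1* and *Nfkb2* met the adjusted p threshold. *Relb* also passed the fold change threshold without WT1 (0.63) or without WT2 (0.60).

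Of 26 NF-κB subunits and feedback regulators 11 rose and none fell (42.3% risen, median log2 fold change 0.49). All 11 showed no overlap between the treatments, which held for 962 of all 1461 risen genes and for 20.5% of all tested genes. *Zc3h12a*, which encodes the RNase Regnase-1 that degrades cytokine mRNAs, had 37.9, 34.2, 35.2, 35.1 and 35.6 CPM in the basal libraries of mice WT1 to WT5. In the treated libraries it had 194, 216, 217, 227 and 216 CPM. The ranges lay far apart, and the fitted log2 fold change was 2.59 (SE 0.05, adjusted p = 3.84e-24). *Tnfaip3*, the deubiquitinase A20, rose from 32.9 ± 1.78 to 117 ± 13.3 CPM (log2 fold change 1.83), and *Birc3*, a ubiquitin ligase of the TNF receptor complex, from 19.9 ± 1.41 to 70.8 ± 3.75 CPM (1.83). The inhibitor *Nfkbia*, which holds NF-κB in the cytosol, rose from 148 ± 9.69 to 427 ± 38.1 CPM (1.53), and *Nfkbiz*, a nuclear cofactor for IL17 target genes, from 119 ± 12.9 to 257 ± 20.3 CPM (1.11). *Tnip3*, a partner of A20, had the largest rise in this list, from 0.0754 ± 0.0942 to 2.35 ± 1.22 CPM (4.87, or 5.57 without WT3). Without WT1, 1 member of the list fell.

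Secreted signals that passed the filter rose more often than the background. Of 17 tested chemokine and atypical chemokine receptor genes 11 rose and 2 fell, and 25 of 42 in the list did not pass. Of 26 tested other cytokines and colony-stimulating factors 12 rose and 2 fell, and 15 of 41 did not pass. The filter averages basal and treated libraries, so genes near 0 in basal libraries could pass through their treated level. This can raise the risen share of a list. The neutrophil attractant *Cxcl1* had 8.71, 6.36, 3.96, 4.78 and 6.85 CPM in the basal and 72.9, 71.0, 66.9, 87.4 and 84.5 CPM in the treated libraries of mice WT1 to WT5. The groups lay far apart, and its log2 fold change was 3.65 (SE 0.17, adjusted p = 3.43e-16). The related *Cxcl2* (log2 fold change 4.18), *Cxcl3* (4.80) and *Cxcl5* (3.90) rose from levels under 0.3 CPM. Basal reads of *Cxcl3* and *Cxcl5* came from WT1 alone, and without WT1 their fitted changes, set against a basal group at 0, were 9.22 and 7.98. *Ccl20*, which attracts IL17-producing T cells, rose from 14.7 ± 3.33 to 36.5 ± 6.16 CPM (1.32), and *Cxcl16*, a membrane-bound chemokine, from 181 ± 9.08 to 458 ± 39.2 CPM (1.34). *Cxcl14*, a chemokine of resting epithelia, fell from 29.9 ± 5.30 to 14.5 ± 1.97 CPM (-1.04), whereas *Ccl27a*, which attracts skin-homing T cells, had 60.7 ± 5.33 and 58.5 ± 7.65 CPM and was not called. *Csf2*, *Csf3* and *Csf1*, growth factors of granulocytes and macrophages, rose with log2 fold changes of 5.47, 2.69 and 1.39, *Csf2* from 0.0668 ± 0.0736 to 3.23 ± 1.02 CPM (6.13 without WT3). *Il17c*, an epithelial member of the IL17 family, rose from 0.0462 ± 0.0504 to 1.16 ± 0.528 CPM (4.64, or 5.38 without WT1), and *Il23a*, which sustains IL17-producing cells, from 0.984 ± 0.501 to 4.26 ± 0.897 CPM. *Tnf* itself, the mRNA of an added cytokine, had 7.03, 5.14, 4.44, 4.72 and 4.30 CPM in the basal and 31.9, 38.3, 40.0, 34.9 and 37.0 CPM in the treated libraries. *Tslp*, an alarmin of atopic skin, fell from 37.9 ± 12.1 to 14.4 ± 4.63 CPM (-1.40), and without WT3 or WT5 1 gene of that list fell in place of 2.

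Among the interleukin-1 and interleukin-36 family, 8 of 25 genes rose and 2 fell. *Il36a* had 3.94, 8.42, 2.80, 4.03 and 4.04 CPM in the basal and 37.1, 74.3, 59.2, 70.2 and 54.9 CPM in the treated libraries, in the order of the mice, a log2 fold change of 3.68 (adjusted p = 1.36e-11). *Il1a* rose from 22.5 ± 4.21 to 92.5 ± 18.2 CPM (2.04) and *Il36g* from 120.1 ± 32.3 to 215 ± 33.9 CPM (0.84). The natural antagonists *Il1rn* (1.42) and *Il36rn* (0.89) rose as well. The alarmins *Il18* and *Il33* moved the other way. *Il18* had 20.3, 33.9, 23.5, 32.0 and 25.8 CPM in the basal and 4.26, 4.76, 2.98, 3.99 and 3.09 CPM in the treated libraries, a fitted level 7.07-fold lower (log2 fold change -2.82, SE 0.18, adjusted p = 2.85e-13), and *Il33* fell from 14 ± 4.12 to 5.11 ± 1.68 CPM. *Casp4*, which encodes the inflammatory caspase-11, rose from 0.302 ± 0.264 to 1.77 ± 0.509 CPM (2.53, or 3.22 without WT3), while *Gsdmc*, a pore-forming gasdermin, fell from 51.3 ± 9.83 to 1.42 ± 0.224 CPM (-5.17). Reads of *Gsdmc* may be shared with its near copies in the genome.

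The bases before the start of these genes are shown because members that rose together share a sequence there. RefSeq promoters (GRCm38.p6 table) were found for 11247 of the tested genes. The NF-κB motif was searched on both strands in the 250 bases before each start. It was present in the promoters of 7 of 10 risen NF-κB regulators with a promoter in the table and of 3 of 11 that were not called, in 6 of 8 risen chemokines and in none of the 4 chemokines that were not called, against 4.64% of all 14363 promoters. The list counts are of genes with a match in any of their promoters, whereas 4.64% is a share of promoters. These are unlike measures. Over all genes the motif was held by 7.11% of the promoters of risen, 3.53% of fallen and 4.47% of other genes. Within 100 bases of the start the shares were 3.68%, 0.916% and 1.71%. A match is a description of the letters and does not show that a factor binds there. Below are the 120 bases before the RefSeq start of 6 of these genes, 5′ to 3′ on the strand of the gene and located in GRCm39 by exact match, with the NF-κB match in capitals. *Cxcl1* lies at chr5:91038984-91039103 (plus strand), *Cxcl2* at chr5:91051638-91051757 (plus strand), *Cxcl3* at chr5:90933840-90933959 (plus strand), *Ccl20* at chr1:83094367-83094486 (plus strand), *Tnip3* at chr6:65567262-65567381 (plus strand) and *Nfkbia* at chr12:55539433-55539552 (minus strand).
Cxcl1: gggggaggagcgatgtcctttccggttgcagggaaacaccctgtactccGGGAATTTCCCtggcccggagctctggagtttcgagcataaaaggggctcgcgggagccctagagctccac
Cxcl2: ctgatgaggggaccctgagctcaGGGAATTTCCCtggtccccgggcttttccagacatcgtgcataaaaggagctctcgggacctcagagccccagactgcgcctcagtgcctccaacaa
Cxcl3: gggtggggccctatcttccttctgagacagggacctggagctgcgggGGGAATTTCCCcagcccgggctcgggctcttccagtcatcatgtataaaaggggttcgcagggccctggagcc
Ccl20: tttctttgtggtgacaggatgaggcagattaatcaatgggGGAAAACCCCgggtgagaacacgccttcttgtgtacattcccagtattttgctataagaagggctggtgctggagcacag
Tnip3: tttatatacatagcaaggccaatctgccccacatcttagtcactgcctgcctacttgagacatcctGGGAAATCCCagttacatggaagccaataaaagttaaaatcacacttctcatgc
Nfkbia: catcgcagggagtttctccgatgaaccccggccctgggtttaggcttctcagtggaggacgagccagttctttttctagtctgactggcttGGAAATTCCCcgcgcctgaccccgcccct
The capitals of *Cxcl1*, *Cxcl2* and *Cxcl3* are the same 11 letters and match the motif on both strands. They begin 71, 97 and 73 bases before the start. These genes are related and lie near each other on chromosome 5, so their matches are not independent of each other.

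Of 30 antimicrobial and acute-phase genes 18 rose, 3 fell and 9 were not called, with a median log2 fold change of 1.81. Of all 46 genes in the list, 16 did not pass the filter. *Lcn2*, which encodes the siderophore-binding lipocalin 2, had 3.82, 4.07, 1.61, 3.62 and 4.44 CPM in the basal and 125, 234, 258, 215 and 259 CPM in the treated libraries of mice WT1 to WT5 (log2 fold change 5.97, SE 0.26, adjusted p = 1.07e-16). The lowest treated value was that of WT1. The β-defensin *Defb3* rose from 0.143 ± 0.118 to 28.5 ± 8.55 CPM (7.60), and *Saa3*, an acute-phase apolipoprotein, had 0.799, 0.0395, 0.258, 0.283 and 0.378 CPM in the basal and 31.6, 30.0, 99.8, 39.5 and 44.1 CPM in the treated libraries (7.10, or 7.78 without WT1). *Slpi*, a protease inhibitor with antimicrobial activity, rose from 11.7 ± 2.56 to 169.6 ± 36.3 CPM (3.86), and *Chil1*, a chitinase-like protein, from 5.50 ± 1.22 to 95.9 ± 23.9 CPM (4.13). *Pglyrp3* and *Pglyrp4*, bactericidal proteins that bind peptidoglycan, rose by log2 fold changes of 1.01 and 2.16. The constitutive defensin *Defb1* fell from 290.2 ± 37.3 to 103 ± 17.6 CPM (-1.49), and the RNases *Rnase4* (-1.06) and *Ang* (-0.91), whose transcripts overlap, fell too. Of 18 complement genes and regulators 3 rose (16.7%), 1 fell (5.56%) and 14 were not called, with a median log2 fold change of -0.07. Those that rose were *C3* (3.46, or 4.05 without WT1), *C1s1* (2.53) and *C1ra* (2.31), and the complement inhibitor *Cd55* fell (-0.67). Without WT2 or WT3, 2 complement genes fell. Values of the serum amyloid A and defensin copies are uncertain where reads could be split between them.

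Of 44 interferon-stimulated genes 29 rose and none fell (65.9% risen), and 42 had a positive fold change (median log2 fold change 1.18). Of all 57 genes in the list, 13 did not pass the filter. *Isg15*, a ubiquitin-like modifier, had 1.46, 0.711, 0.483, 1.57 and 1.04 CPM in the basal and 2.40, 3.30, 5.05, 4.64 and 13.9 CPM in the treated libraries, where WT5 lay above the others. *Ifit1*, which binds foreign RNA, rose from 0.379 ± 0.208 to 2.71 ± 2.95 CPM (2.84), *Oasl2* from 0.245 ± 0.175 to 3.52 ± 3.64 CPM (3.80, or 4.395 without WT4), and *Ifitm3*, which blocks virus entry, from 16.6 ± 11.4 to 107 ± 15.6 CPM (2.69). Without WT5 the log2 fold changes were 1.86 for *Isg15* (against 2.47), 1.995 for *Ifit1* and 2.74 for *Oasl2*, all still called. The GTPase genes *Gbp2*, *Gbp7*, *Irgm1* and *Irgm2* rose with log2 fold changes between 0.97 (*Irgm1*) and 2.02 (*Gbp2*). Of the factors that drive such genes, *Irf1* rose from 12.4 ± 3.09 to 33.6 ± 2.60 CPM and *Irf7* from 1.32 ± 0.502 to 4.79 ± 2.13 CPM, and *Stat2* (0.37) was not called. Antigen presentation genes moved in part, with 8 of 25 risen and 1 fallen. These were the immunoproteasome genes *Psmb8* (1.97), *Psmb9* (0.88) and *Psmb10* (0.88), the peptide loading genes *Tap2* (0.82) and *Tapbp* (0.89), *Psme2* (0.82), and the class I genes *H2-Q4* and *H2-M2*, whose reads can be shared with near copies. The transactivator *Nlrc5* fell (-0.63). Its call was lost without WT1 (-0.56), WT2 (-0.33), WT4 (-0.67) or the basal library of WT2 alone (-0.52), and that of *Psmb9* without WT4 (0.74), WT5 (0.77) or the basal library of WT2 (0.72).

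The interferon-stimulated response element (GAAANNGAAA, both strands) was found before 13 of the 23 risen interferon-stimulated genes with a promoter in the table and before 6 of 11 that were not called, against 2.4% of all promoters. As above, the list counts are of genes and the percentages are of promoters. Risen genes as a whole held the element in 3.6% and fallen genes in 2.62% of promoters. For 4 risen members the 120 bases before the start are shown, with the matches in capitals. *Isg15* lies at chr4:156285276-156285395 (minus strand), *Ifit1* at chr19:34618169-34618288 (plus strand), *Gbp2* at chr3:142326304-142326423 (plus strand) and *Irgm2* at chr11:58105683-58105802 (plus strand).
Isg15: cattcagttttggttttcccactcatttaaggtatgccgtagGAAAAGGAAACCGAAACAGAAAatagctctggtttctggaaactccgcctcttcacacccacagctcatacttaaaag
Ifit1: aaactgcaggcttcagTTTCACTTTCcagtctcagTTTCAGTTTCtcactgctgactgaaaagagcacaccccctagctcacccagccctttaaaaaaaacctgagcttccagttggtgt
Gbp2: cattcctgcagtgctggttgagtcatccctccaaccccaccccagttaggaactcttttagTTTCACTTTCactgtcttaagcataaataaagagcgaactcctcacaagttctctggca
Irgm2: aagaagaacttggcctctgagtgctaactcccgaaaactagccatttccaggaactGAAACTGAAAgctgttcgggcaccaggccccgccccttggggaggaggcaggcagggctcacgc
The match of *Ifit1* occurs in 2 copies, 104 and 85 bases before the start, and *Isg15* holds 3 overlapping copies from 78 bases before the start.

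The cornified envelope held genes that rose steeply, genes that fell and genes that were not called. The epidermal differentiation complex on chromosome 3 holds most of these genes side by side. Of 57 tested list members with a matched position in it, 20 rose, 10 fell and 27 were not called. *Lor*, loricrin, which also belongs to the complex, was not matched to a position by its symbol and is not among them. It fell from 460.0 ± 171 to 103 ± 31.4 CPM (-2.15). All 6 *Lce3* genes rose, with log2 fold changes between 4.27 (*Lce3c*) and 7.51 (*Lce3a*, or 8.13 without the basal library of WT2), and 8 *Sprr2* genes from *Sprr2b* to *Sprr2k* rose by 1.56 (*Sprr2h*) to 7.46 (*Sprr2f*), whereas *Sprr2a1* (-0.23), *Sprr2a2* (-0.11), *Sprr2a3* (-0.32), *Sprr1a* (-0.06) and *Sprr1b* (-0.38) were not called. Of 14 *Lce1* genes, 1 rose (*Lce1g*, 0.86), 2 fell (*Lce1c*, -1.12, and *Lce1m*, -2.34) and 11 were not called. The call of *Lce1g* was lost without WT2, WT3 or WT5 (0.81 to 0.82), and that of *Lce1c* without the basal library of WT2 (-0.87). *Sprr2d*, a proline-rich precursor of the envelope, had 54.8, 115, 72.6, 75.4 and 92.8 CPM in the basal and 807, 2019, 1544, 1871 and 1884 CPM in the treated libraries. Of the filaggrin-type genes next to them, *Flg*, whose product bundles keratin filaments, fell from 194 ± 47.1 to 31.8 ± 6.62 CPM (-2.61), *Flg2* from 20.0 ± 6.12 to 2.36 ± 0.523 CPM (-3.09) and *Hrnr* from 154 ± 52.8 to 68.6 ± 15.3 CPM (-1.17), while *Rptn*, another member of that family, rose from 221 ± 71.0 to 422 ± 93.8 CPM. Both the *Sprr2* and the *Lce3* families consist of near-identical copies, so values of single *Sprr2* and *Lce* genes are uncertain. In the fit with the mouse as a replicate block, 8 genes of the late cornified envelope and SPRR list fell in place of 3.

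**Figure D2:**
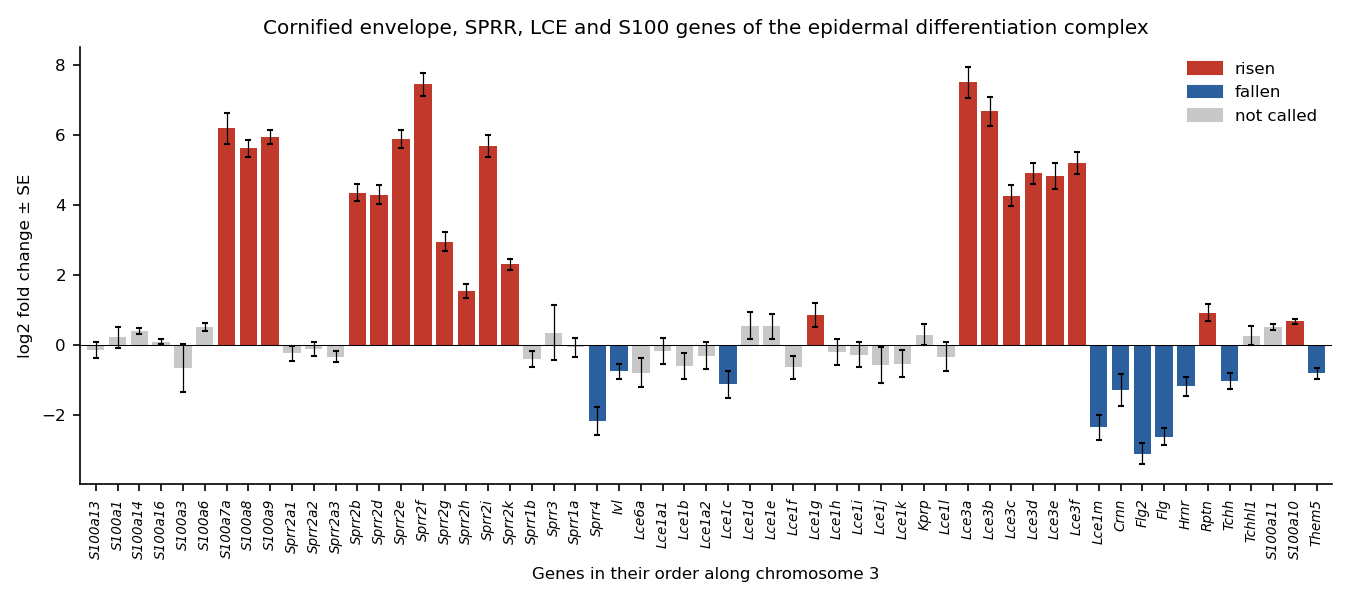
log2 fold change ± SE of 57 tested cornified envelope, SPRR, LCE and S100 genes with a matched position, in their order along chromosome 3 (horizontal axis), red risen, blue fallen and grey not called. The S100a7a to S100a9, Sprr2 and Lce3 genes form runs of tall red bars, with grey bars between, and 5 neighbouring blue bars from Lce1m to Hrnr.

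Of 8 suprabasal markers, most of which are also in the lists described here, 7 fell. Their summed level lay between 3420 and 6125 CPM in basal and between 769 and 1335 CPM in treated libraries. *Krt10*, the keratin of suprabasal cells, had 583, 1060.1, 969, 1069 and 888 CPM in the basal and 14.1, 19.7, 54.3, 25.8 and 29.5 CPM in the treated libraries of mice WT1 to WT5. Every mouse fell, with a log2 fold change of -5.00 (SE 0.32, adjusted p = 4.93e-13), a fitted level 32.0-fold lower. Its partner *Krt1* fell from 1522 ± 349.9 to 75 ± 19.1 CPM (-4.34). Over the whole list of envelope, filaggrin-type and crosslinking genes 16 of 37 fell (43.2%) and 5 rose. Members that rose were *Cnfn* (2.29), the cystatins *Csta1*, *Stfa1* and *Stfa2*, and *Rptn*. Transglutaminase 1, which crosslinks the envelope, was not called (*Tgm1*, 116 ± 26.6 and 138 ± 24.9 CPM). Of the keratins of dividing and activated cells, *Krt5* (-0.31), *Krt14* (-0.46), *Krt6a* (-0.51), *Krt16* (-0.55) and *Krt17* (0.08) all stayed under a fold change of 1.5. *Krt5*, *Krt14*, *Krt6a* and *Krt16* met the adjusted p threshold, and *Krt16* passed both thresholds without WT3 (-0.59). *Krt75*, a keratin of the companion layer of hair follicles, rose from 2.41 ± 0.517 to 24.1 ± 8.52 CPM (3.32), and *Krt15*, found in follicle stem cells, fell from 15.2 ± 5.22 to 3.19 ± 0.907 CPM (-2.25). Transcription factors of differentiation moved both ways, with 6 risen and 6 fallen of 42. *Grhl3* (0.95), *Prdm1* (1.34), *Tfcp2l1* (1.97) and *Sox9* (0.91) rose, *Pou2f3* (-2.21) and *Barx2* (-1.53) fell, and *Trp63*, the master factor of basal cells, had 372 ± 27.7 and 389 ± 37.2 CPM and was not called.

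Of 16 desmosome genes 5 fell and 1 rose (2 without WT3 or WT4). *Dsg1a*, a desmoglein of the upper epidermis with near copies beside it, had 226, 364, 241, 326 and 302 CPM in the basal and 18.2, 21.8, 30.1, 26.4 and 21.3 CPM in the treated libraries (-3.63), *Dsc1* fell from 333 ± 73.8 to 117 ± 27.0 CPM (-1.51), and *Dsc2*, a desmocollin of simple and basal epithelia, rose from 83.8 ± 15.8 to 278 ± 44.2 CPM (1.73). *Dsg3*, the desmoglein of basal cells, had 1204 ± 68.4 and 1105 ± 44.7 CPM and was not called. Of 32 tight, adherens and gap junction genes 11 rose and 2 fell. These included the claudins *Cldn4* (1.31) and *Cldn7* (2.37), *Epcam* (1.67) and the connexins *Gjb2* and *Gjb6*, *Gjb2* rising from 38.1 ± 6.83 to 108 ± 20.5 CPM. E-cadherin was not called (*Cdh1*, 1053 ± 65.6 and 1076 ± 56.2 CPM). Of 59 actin and motility genes 15 rose, none fell and 54 had a positive fold change (median log2 fold change 0.38). *Actb* had 1997, 1874, 1977, 1893 and 2146 CPM in the basal and 3041, 2851, 3149, 3054 and 3291 CPM in the treated libraries, a log2 fold change of 0.64 (SE 0.05, adjusted p = 8.91e-12). *Anxa1* (1.30), *Fscn1*, which bundles actin in protrusions (1.09), and *Rhoc* (1.42) rose more.

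**Figure D3:**
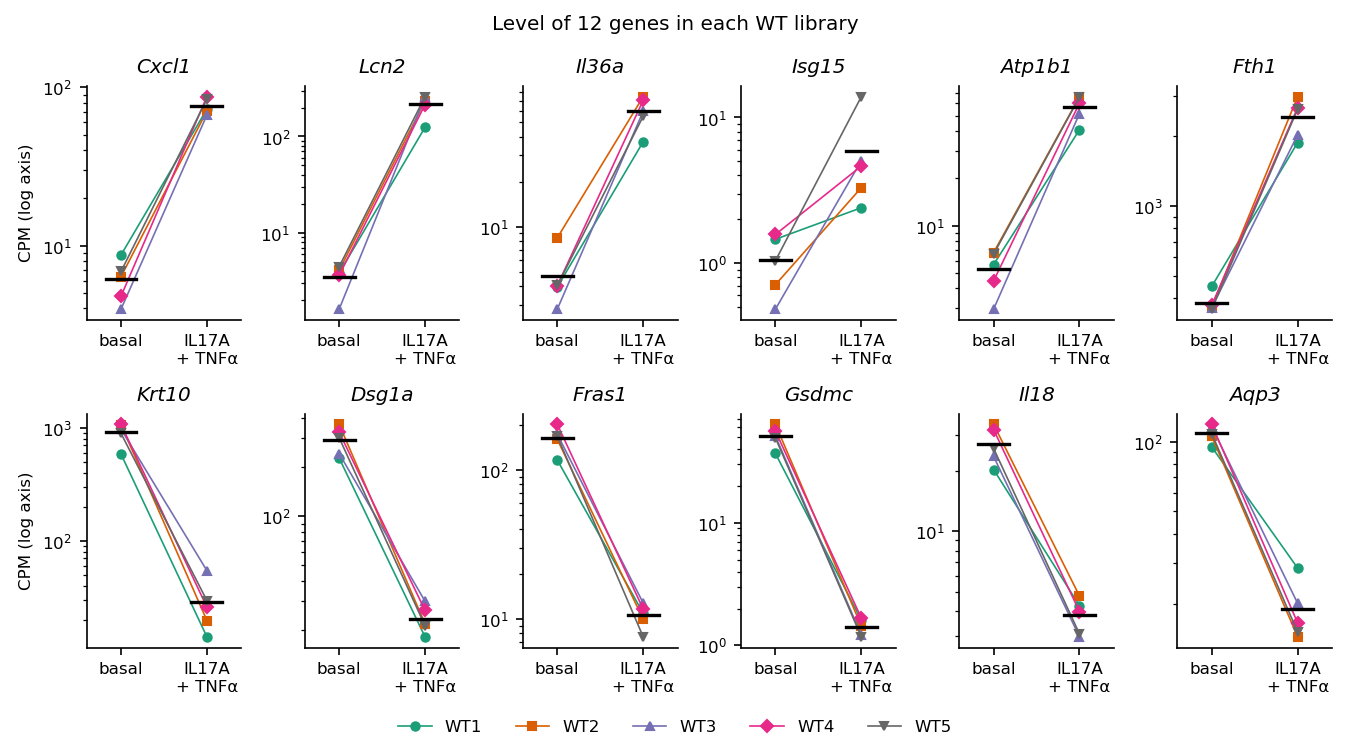
CPM (vertical axes, log scale) of 12 genes in the basal and the treated library of each WT mouse, joined by a line, with the mean of each group as a black bar. In all 12 panels the 5 treated libraries lie on 1 side of the 5 basal libraries, above them in the upper row and below them in the lower row.

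Matrix and proteolysis genes rose more often than they fell. Of 36 metalloprotease and plasminogen activator genes 14 rose and 3 fell. *Mmp9*, a gelatinase, rose from 2.12 ± 0.374 to 25.3 ± 7.16 CPM (3.57), *Plaur*, the urokinase receptor, from 20.9 ± 5.82 to 111 ± 29.1 CPM (2.41) and *Plau*, urokinase, from 189 ± 18.6 to 379 ± 13.2 CPM (1.01). *Timp3*, an inhibitor of metalloproteases, fell from 369 ± 44.4 to 231 ± 29.8 CPM (-0.68). Of the cell-matrix genes, *Itga2* (1.49), *Itgav* (0.95), *Itgb6* (0.83) and *Fn1*, fibronectin (1.11), rose. *Fras1*, an extracellular protein of the basement membrane, had 116, 160.0, 173, 202 and 168 CPM in the basal and 10.9, 9.91, 12.7, 11.6 and 7.55 CPM in the treated libraries (-3.96, adjusted p = 1.63e-17), and its relative *Frem2* fell from 4.20 ± 2.42 to 0.634 ± 0.605 CPM (-2.73). *Col17a1* (-0.11) and *Itga6* (-0.01), which anchor basal cells, were not called. Among the clade B serpins, *Serpinb3a* (3.48) and *Serpinb3b* (3.27), near copies of each other, rose and *Serpinb7* (-2.18) and *Serpinb12* (-1.51) fell.

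Growth factor and developmental signals moved both ways. Among the EGF receptor ligands, *Hbegf* rose from 13.2 ± 3.06 to 60.4 ± 10.7 CPM (2.20), *Tgfa* (0.97) rose, and *Epgn* fell from 371 ± 89.1 to 211 ± 50.7 CPM (-0.81), while *Egfr* was not called (0.01). Of 39 Wnt pathway genes 6 rose and 11 fell. The ligand *Wnt7a* rose from 22.5 ± 5.08 to 63.2 ± 12 CPM and *Wnt5a* from 4.92 ± 1.28 to 11.6 ± 2.34 CPM. *Wnt4* fell from 433 ± 44.7 to 214 ± 35.3 CPM, *Wnt3* from 63.0 ± 7.54 to 24.9 ± 5.34 CPM and *Wnt16* from 38.4 ± 5.25 to 5.53 ± 2.32 CPM. Of 17 Notch pathway genes 4 fell (*Dtx4*, *Notch3*, *Rfng* and *Dll1*) and none rose, and *Notch1* (-0.25) and *Jag1* (0.46) were not called. *Dll1* did not pass without WT4 (-0.58). Of 43 TGFβ and BMP genes 8 rose and 8 fell. *Inhba*, the activin A subunit, rose from 168 ± 19.9 to 461 ± 33.8 CPM (1.46), and so did its binding protein *Fst* (0.81), while *Tgfbi*, an adhesion protein induced by TGFβ, fell from 239.9 ± 48.0 to 62.4 ± 12.7 CPM (-1.94), *Id1*, a target of BMP signals, from 5.23 ± 1.01 to 0.824 ± 0.339 CPM (-2.67), and *Sostdc1*, a BMP and Wnt antagonist, from 26.2 ± 7.73 to 2.52 ± 1.05 CPM (-3.38). Of 37 receptors for other cytokines and leukocyte adhesion genes 9 fell and 7 rose. Those that fell included *Il6st*, the shared subunit of the IL6 family (-0.77), *Il6ra* (-0.92), *Il13ra1* (-1.29), *Il20rb* (-1.65) and the decoy receptor *Il22ra2* (-2.08), whereas *Il22ra1* rose (0.71), but not without WT3 (0.56).

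Genes of iron, solute and water transport were called in both directions. Of 34 mucin, ion transport and water channel genes 12 rose and 7 fell. *Fth1*, the heavy chain of the iron store ferritin, had 449, 366, 363, 372 and 358 CPM in the basal and 1878, 2970.2, 2031, 2660.3 and 2621 CPM in the treated libraries, which made it, after *S100a9*, the gene with the second largest gain in CPM. As CPM are not corrected for gene length, this is a rank of reads and not of transcripts. The log2 fold change of *Fth1* was 2.67 (SE 0.10, adjusted p = 9.08e-18), while the light chain gene *Ftl1* had 832 ± 94.3 and 991 ± 45.6 CPM and was not called (0.25). *Steap4*, a metalloreductase, rose from 7.11 ± 3.81 to 93.2 ± 16.3 CPM (3.71), and *Slc40a1*, the iron exporter ferroportin, named here after its values were seen, fell from 22.1 ± 5.85 to 6.37 ± 2.15 CPM (-1.79). *Atp1b1*, the β1 subunit of the sodium pump, had 5.66, 6.74, 2.95, 4.45 and 6.59 CPM in the basal and 40.7, 66.1, 51.6, 60.1 and 65.7 CPM in the treated libraries (3.44). All 3 subunits of the epithelial sodium channel rose, *Scnn1a* by 0.67 (0.56 without WT5, under the threshold), *Scnn1b* by 1.38 and *Scnn1g* by 2.0. The sodium-glucose cotransporter *Slc5a1* rose from 9.45 ± 1.20 to 70.2 ± 10.3 CPM (2.90) and the amino acid transporter *Slc6a14* from 11.7 ± 2.54 to 118 ± 23.4 CPM (3.33). *Aqp3*, the water and glycerol channel of the epidermis, had 94.8, 105, 116, 119 and 108 CPM in the basal and 28.5, 14.4, 20.1, 16.5 and 15.1 CPM in the treated libraries (-2.52).

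Of 27 genes of tryptophan, arginine and polyamine metabolism 8 rose and none fell, among them *Nos2*, inducible nitric oxide synthase (from 0.0697 ± 0.0656 to 1.45 ± 0.872 CPM), *Gch1*, which makes its cofactor (1.73), *Arg2* (1.99), *Smox* (1.62) and *Odc1* (0.64). *Uox*, urate oxidase, rose from 0.285 ± 0.149 to 22.4 ± 5.67 CPM (6.31). *Tdh*, threonine dehydrogenase, fell from 7.48 ± 2.04 to 0.156 ± 0.136 CPM (-5.56, or -6.29 without WT1) and *Cbs*, cystathionine β-synthase, from 17.6 ± 1.45 to 2.18 ± 0.611 CPM (-3.01). Without WT3 *Pla2g4f* and *Aloxe3* in the lists that follow had log2 fold changes of 0.58 and were not called. Of the phospholipases A2, *Pla2g4e* rose from 16.2 ± 4.84 to 112 ± 28.4 CPM (2.79), *Pla2g4d* by 3.97, *Pla2g4b* by 1.08 and *Pla2g4f* by 0.72, *Pla2g4a* was not called (-0.03), *Pla2g4b* lost its call without any 1 of the 5 mice (0.94 to 1.22) or the basal library of WT2 (1.01), and *Pla2g4c* did not pass the filter. The secreted enzyme *Pla2g2f* fell from 109.9 ± 38.6 to 14.9 ± 6.22 CPM (-2.88). *Ptges*, the terminal prostaglandin E synthase, rose from 76.4 ± 15.4 to 173 ± 25.7 CPM (1.18), and *Ptgs2*, cyclooxygenase-2, had 538 ± 85.2 and 788 ± 117 CPM, a log2 fold change of 0.55 just under the threshold that passed without WT2 (0.59). Both receptors of leukotriene B4, *Ltb4r1* (-1.16) and *Ltb4r2* (-1.39), fell. Lipid genes of the barrier moved in both directions, with 9 of 40 ceramide genes risen and 5 fallen. *Alox12b* (1.17), *Aloxe3* (0.66) and *Pnpla1* (0.89), needed for acylceramides, rose, and *Cyp4f39*, which makes their ω-hydroxy fatty acids, fell (-0.86).

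**Figure D4:**
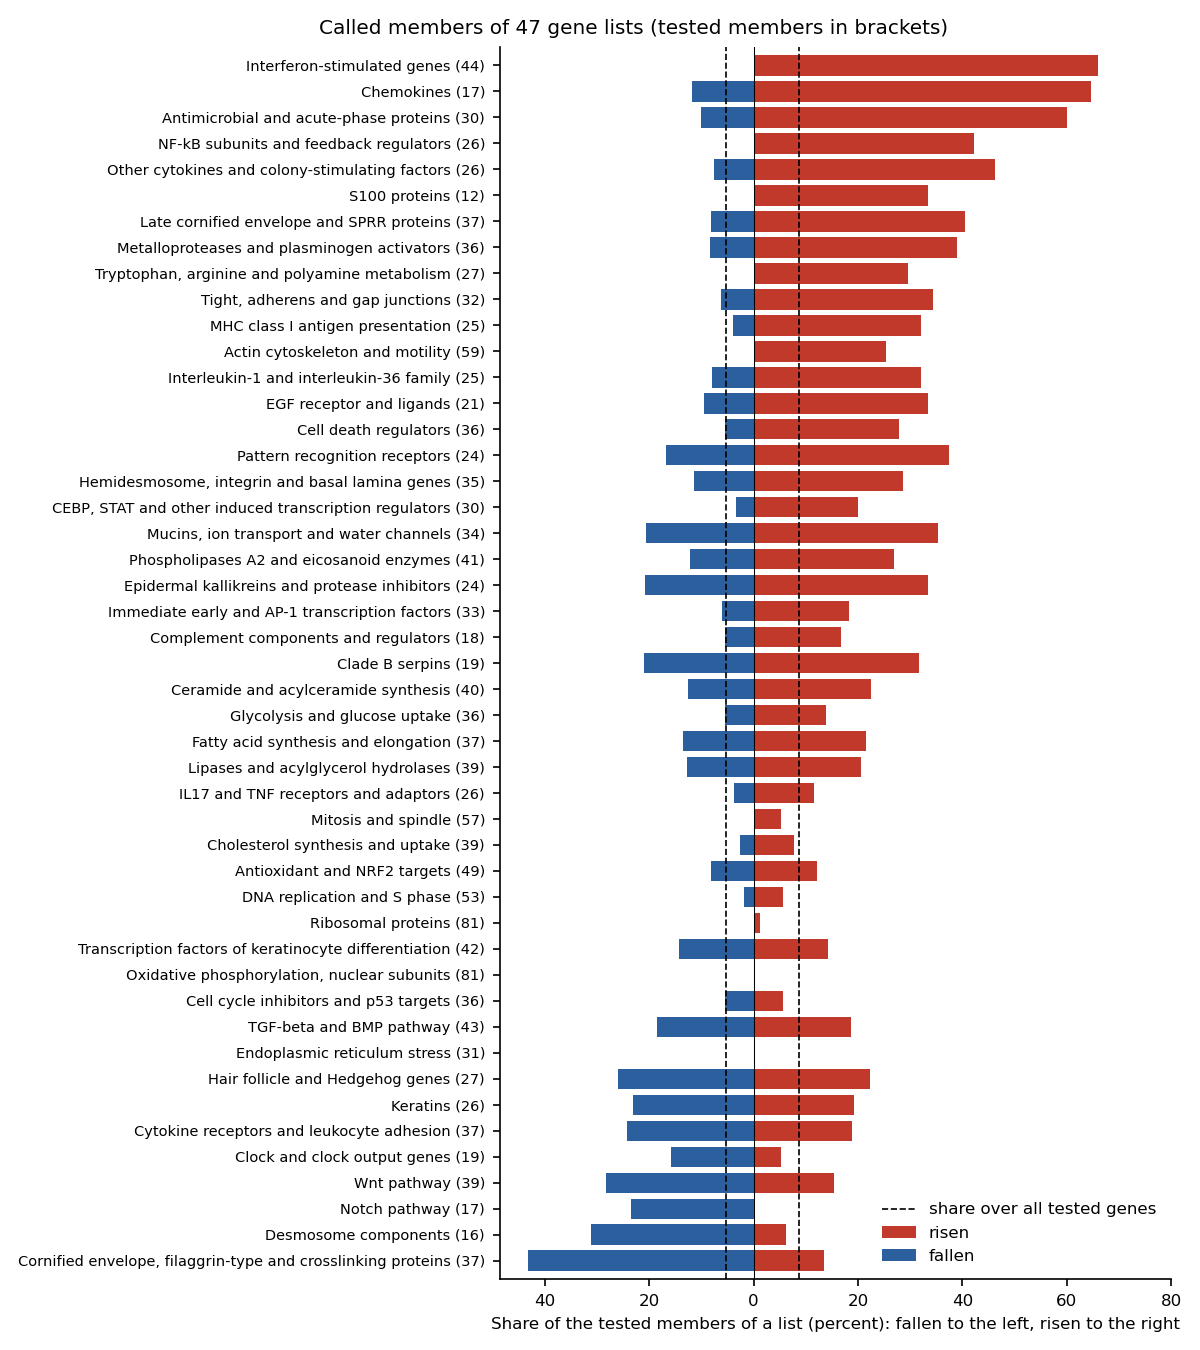
Share of the tested members of 47 gene lists that rose (red, to the right) and fell (blue, to the left), with the number tested in brackets and the shares over all 16893 genes as dashed lines at 8.65% and 5.26%. Interferon-stimulated genes, chemokines and antimicrobial genes lie at the top, the cornified envelope and desmosome lists at the bottom.

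Few or no genes of oxidative phosphorylation, endoplasmic reticulum stress and the ribosome were called. None of 81 nuclear genes of oxidative phosphorylation and none of 31 genes of endoplasmic reticulum stress was called in edgeR's test, with median log2 fold changes of -0.03 and -0.02. At an unadjusted p under 0.05 they held 20 and 10 genes, and DESeq2 and limma called 0 in both lists. Without WT3, WT4 or the basal library of WT2, 1 gene of oxidative phosphorylation fell. Of 81 ribosomal protein genes 1 was called, the little expressed *Rpl32l* (0.86), whose call was lost without WT2, WT3, WT4 or WT5 (0.75 to 0.84) or the basal library of WT2 (0.72). Cholesterol synthesis and uptake had 3 risen (7.69%) and 1 fallen (2.56%) of 39 genes, against 8.65% and 5.26% of all tested genes. Its risen share thus lay near that of all tested genes. Of 57 mitosis genes 55 had a positive fold change (median log2 fold change 0.38), but only *Anln*, *Dlgap5* and *Ube2c* rose past the thresholds. A replicate block for the mouse gave 8 risen genes. Without WT1 8 rose, and without WT2, WT4, WT5 or the basal library of WT2 alone 1 did. *Dlgap5* (0.64) lost its call without any 1 of the mice (0.55 to 0.70) or the basal library of WT2 (0.50) and *Ube2c* (0.62) without WT2, WT4 or WT5 (0.56 to 0.63) or the basal library of WT2 (0.56). *Mki67*, a marker of cycling cells, had 67.2 ± 36.1 and 75.9 ± 40.4 CPM and was not called.

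Only 2 genes went from under 0.1 CPM in every basal library to over 1 CPM in every treated library, and none did the reverse. *Vnn3*, a pantetheinase, had no count in any basal library and 5.89, 9.61, 12.5, 7.02 and 7.51 CPM in the treated libraries of mice WT1 to WT5, a level at least 784-fold higher when the basal group is set to a floor of 3 counts. Its neighbour and relative *Vnn1* on chromosome 10, named here after its values were seen, rose from 0.178 ± 0.128 to 8.60 ± 0.812 CPM (5.60). *U90926*, a little studied gene of mouse, had 0, 0, 0, 0.0315 and 0 CPM in the basal and 7.31, 6.30, 18.4, 11.3 and 11.6 CPM in the treated libraries. The floor covers counting error only.

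Among genes with a matched position, the 1 Mb window with the most risen genes lay in the epidermal differentiation complex (GRCm39 chromosome 3, 91921890 to 92900733), where 19 of 49 tested genes rose and 6 fell. It was followed by a stretch of the major histocompatibility complex (chromosome 17, 35235495 to 36186488; 12 of 52), a stretch of chromosome 11 with *Cxcl16* and *Cldn7* (69555037 to 70448938; 10 of 52), the stefin cluster of chromosome 16 with *Csta1*, *Stfa1*, *Parp9* and *Parp14* (35653231 to 36550355; 9 of 20) and the interferon-inducible Ifi200 cluster of chromosome 1 (173178445 to 173829538; 8 of 10). That cluster holds *Aim2*, a sensor of cytosolic DNA (0.742 ± 0.159 to 3.04 ± 0.877 CPM), *Ifi204*, *Ifi203*, *Ifi209*, *Ifi211*, *Ifi202b* and *Mndal*, which resemble each other and may share reads. The most fallen genes in 1 Mb, 9 of 37 tested, lay at the other end of the epidermal complex, from *Sprr4* to *Tchh* (chromosome 3, 92407570 to 93356384), a window that also held 9 risen genes and overlaps the first one.

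The 5 mice moved in the same direction for most called genes, and the change was smallest in WT1. These genes were called on the same mice, so that their shared direction is partly built in. Among called genes whose mean normalized count exceeded 100, 980 risen genes had a median log2 change of 0.73 within WT1 and of 1.02, 1.01, 1.01 and 1.09 within WT2 to WT5. The 593 fallen genes had medians of -0.82 in WT1 and between -0.98 and -0.90 in the others. *Mki67* was highest in this mouse, at 130.4, 47.8, 63.8, 49.7 and 44.5 CPM in the basal and 148, 59.5, 62.0, 53.8 and 56.3 CPM in the treated libraries of WT1 to WT5, and the part of the cell cycle in the smaller change was not tested. Without WT1, 2533 genes were called. Among called genes averaging over 100 normalized counts, the most even responses over 4-fold were those of *Sprr2g*, *Gk* (glycerol kinase), *Zc3h12a*, *Igfbp2*, *Micall2* and *Il1a*, with an SD of the within-mouse log2 change between 0.107 (*Sprr2g*) and 0.147 (*Il1a*). The least even, with no minimum fold change beyond the call, were *Prl2a1* (2.16), *Syt17* (1.79), *Defb3* (1.71), *Pde6h* (1.67), *Cxcl2* (1.63) and *Saa1* (1.5), all under 0.6 CPM in at least 1 basal library. *Pde6h* was not called without WT2 (0.76).

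**Figure D5:**
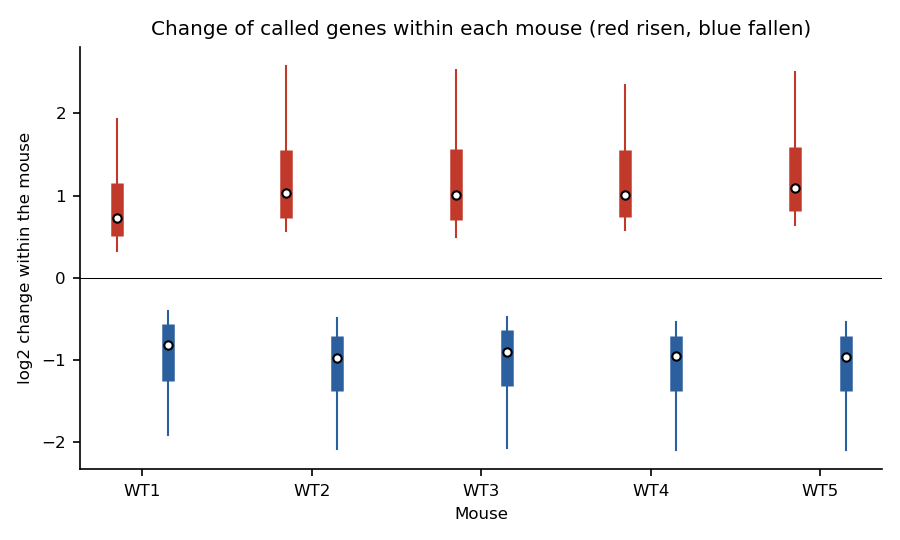
log2 change of the 980 risen (red) and 593 fallen (blue) called genes averaging over 100 normalized counts within each WT mouse (horizontal axis), with the median as a dot, the 25th to 75th percentile as a thick bar and the 10th to 90th percentile as a thin line. WT1 has the smallest medians in both directions.

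The response of WT cells was also set against that of KO cells, as a test of the difference between both responses. This interaction called 37 genes, 0.219% of those tested, of which 31 had a lower and 6 a higher log2 fold change in KO cells. *Rgs4*, a regulator of G protein signalling, rose by 5.86 in WT cells and had a log2 fold change of 1.10 in KO cells (interaction adjusted p = 0.0347), and *Prokr2*, a prokineticin receptor, had 4.65 and 1.90 (0.0576). Both were near 0 in basal cells, and the change in WT cells was 7.745 for *Rgs4* without WT3, 5.16 without WT2, and 5.95 for *Prokr2* without WT2 or 6.05 without its basal library. *Tnf* (2.83 and 1.51, 0.00251), *Irf7* (1.86 and 0.21, 0.0559), *Tnfaip3* (1.83 and 1.19, 0.00201), *Cxcl1* (3.65 and 2.82, 0.0484) and *Atp1b1* (3.44 and 2.59, 0.0634) differed in the same direction, all adjusted p-values being those of edgeR's interaction test. *Aqp3* fell less in KO cells (-2.52 and -1.70, 0.0344), and *Ltb4r1* (-1.16 and -0.32, 0.0923), *Prodh*, proline dehydrogenase (-1.26 and -0.55, 0.0829), and *Vwa2* (-0.92 and -0.22, 0.0344) differed likewise. The other genes were not called, which does not show that both genotypes respond alike. The interaction compares fold changes and not levels, and levels in KO cells are not given here. For untreated keratinocytes, the paper reports that loss of *Pla2g4d* raised *Tnf* and *Cxcl1*. Whether the smaller rise of both genes comes from their starting level or from their treated level was not tested. A fit that held the mouse as a replicate block gave 80 interaction genes, 36 of them among the 37. Without the block, the interaction called 92 genes without WT1, 60 without KO8, 23 without WT2, 21 without WT5, 19 without KO5 and 18 without WT4.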

How the data were processed

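Bulk RNA sequencing of WT mouse keratinocytes was analysed from gene-level counts deposited by the authors, whose strand-specific paired reads of 150 bases were aligned to mm39 with STAR 2.7.10b and counted with featureCounts 2.0.6 on GENCODE (per the study's methods and the submitters' processing notes). The strand setting of the counting is not given in the sources used here. A deposited table of log2 normalized values entered only the limma alternative. Counts per WT library ranged from 42072745 to 72562322. Reads carry no molecular identifiers, so that intervals and floors cover counting error only.

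All 26 libraries were fitted in 4 groups with edgeR 4.0.16 (TMM, quasi-likelihood F-test) in R 4.3.3, without a covariate and without pairing by mouse. A gene was tested if its normalized count averaged over 10 in the 26 libraries, which left 16893. A call required a change of more than 1.5-fold and an adjusted p (Benjamini-Hochberg) under 0.1. The interaction compared both genotypes' responses. Alternatives used DESeq2 1.42.0, limma 3.58.1, other filters and thresholds, the mouse as a replicate block, and each mouse left out. Libraries with 1 number come from the same mouse. Their deviations from the group means correlated at 0.0788 to 0.254, each mouse best with itself. Data for the WT comparison were simulated over 16893 genes, with 100 genes changed 2-fold and 100 changed 4-fold. Of these, 87% and 99% were recovered, with 9 false calls. The changed genes were drawn only from genes with a higher count than the filter requires. Recovery among the least expressed genes was therefore not measured, and no pairing by mouse was simulated. No replicate pair agreed within sampling noise.

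Members, gene lists and tests were chosen with earlier results of these data known. Named genes were the largest fold changes among those averaging over 100 normalized counts, the largest gains and losses in CPM, up to 5 called members per direction and the most abundant uncalled ones of each list, other list members that show which part of a pathway was called, genes switched on, the most and least even changes, interaction calls, the *Pla2g4* family and genes of the 1 Mb windows with the most calls. Coordinates were matched to GENCODE by symbol for 52443 of 56738 symbols. Some genes that this rule names are not reported here. The same mouse supplied both treatments, and p-values measure the spread between mice and cultures.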

Additional observations from a re-analysis of the deposited data

Results flagged for a closer look

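In 51 of 558 groups of 5 WT libraries, for the genes named above and for library values, 1 library lay far from the other four by Dixon's criterion, which chance alone gives for about 1 in 20 groups. Values are CPM, followed by the range of the other libraries of the group. The basal library of WT1 was the highest for *Anln* (106, others 39.1 to 56.8), *C3* (4.62, others 0.629 to 1.45), *Cldn7* (2.57, others 0.435 to 0.837), *Csf1* (29.1, others 12.3 to 15.2), *Cxcl3* (0.243, the other four at 0), *Cxcl5* (0.382, the other four at 0), *Fth1* (449, others 358 to 372), *Gsdmd* (3.89, others 1.54 to 1.87), *Ifitm3* (36.8, others 9.56 to 12.7), *Mki67* (130.4, others 44.5 to 63.8), *Psmb9* (2.29, others 0.593 to 1.03), *Slpi* (16.2, others 9.74 to 11.3), *Steap4* (13.8, others 4.86 to 6.26) and *Ube2c* (44.7, others 16.1 to 23.4). In WT1, the treated library was the lowest for *Alox12b* (33.4, others 54.2 to 61.7), *Gch1* (19, others 28.7 to 29.7), *Hrnr* (42.3, others 69.5 to 79.9), *Nfkbia* (361, others 433 to 455), *Rptn* (257, others 439 to 479), *S100a9* (1306, others 2208 to 2430.0), *Scnn1g* (7.14, others 11.5 to 12.2), *Sprr2a3* (112, others 183 to 209.7), *Sprr2b* (202, others 434 to 459.6), *Stfa1* (207, others 360.2 to 381) and *Wnt5a* (7.54, others 12 to 13.2). Among treated libraries, that of WT1 was the highest for *Anln* (163, others 73.2 to 83), *Cxcl5* (3.67, others 0.31 to 0.867), *Dlgap5* (31.4, others 9.79 to 14.3), *Krt15* (4.8, others 2.59 to 2.94), *Mki67* (148, others 53.8 to 62), *Nos2* (2.96, others 0.867 to 1.3) and *Ube2c* (66.1, others 26.4 to 33.4). The basal library of WT2 was the highest for *Il36a* (8.42, others 2.8 to 4.04), *Krt75* (3.32, others 2.01 to 2.28), *Nlrc5* (5.91, others 3.92 to 4.49), *Prokr2* (0.277, others 0 to 0.0694) and *Scnn1a* (29.1, others 17.3 to 19.8). In WT3, the basal library was the highest for *Frem2* (8.47, others 2.58 to 3.69), *Rgs4* (0.0322, the other four at 0), *Stfa1* (150.2, others 127 to 133) and *Tgfbi* (324, others 202 to 229.6). Among treated libraries, that of WT5 was the highest for *Ifit1* (7.87, others 0.818 to 2.17), *Isg15* (13.9, others 2.4 to 5.05) and *Oasl2* (9.93, others 1.09 to 2.9). The basal library of WT3 was the lowest for *C1s1* (1.35, others 3.57 to 4.46) and *Nfkbia* (132, others 149 to 156). In WT3, the treated library was the highest for *Il13ra1* (38, others 25.7 to 28.6) and *Saa3* (99.8, others 30 to 44.1). Among basal libraries, that of WT2 was the lowest for *Pde6h* (0.316, others 2.98 to 3.58). The basal library of WT4 was the highest for *U90926* (0.0315, the other four at 0). In WT5, the basal library was the highest for *Il17ra* (24.4, others 18.3 to 20). Genes of 1 library are not independent of each other.

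The responses of WT and KO cells differed by the interaction test, given as the log2 fold change in KO minus that in WT cells, for *Aqp3* (0.82), *Atp1b1* (-0.85), *Cxcl1* (-0.83), *Hbegf* (-0.76), *Inhba* (-0.63), *Irf7* (-1.65), *Ltb4r1* (0.84), *Parp14* (-0.70), *Plaur* (-1.01), *Prodh* (0.71), *Prokr2* (-2.75), *Rgs4* (-4.75), *Tnf* (-1.32), *Tnfaip3* (-0.64) and *Vwa2* (0.70).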

How the results depend on the processing

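The count of called genes moved most with the thresholds. With no fold change threshold 6221 genes were called, 3175 risen and 3046 fallen, with a fold change over 2 there were 1295 (823 and 472), and with edgeR's glmTreat 1060 (687 and 373). Under the other alternatives between 2051 and 2550 genes were called, DESeq2 giving 2448 and limma 2550. Without single mice 2051 to 2533 genes were called, of which 1268 to 1596 rose and 783 to 937 fell. With the mouse as a replicate block, in a paired fit, 2459 genes were called, 1549 risen and 910 fallen, and 2247 of them were among the 2349. The block changed the count of fallen late envelope and SPRR genes and of risen mitosis genes by over 1.5 times, as given above. The interaction called 60 genes with DESeq2, 80 with the replicate block and 18 to 92 without single mice. The genes over 1 CPM rose by 184.4 per library (exact permutation test, p = 0.0238). The difference was 81.6 for genes over 5 CPM (exact permutation p = 0.0952) and 93 to 234 without single mice, and it lost significance without WT2, WT3, WT4 or WT5. Without single mice the smallest exact p is 0.0286. A replicate block of sign flips within mice, added after seeing the data, gave an exact p of 0.125 for this difference of 184.4 genes. For the difference of -1.79 percentage points in the share of the 100 most abundant genes it gave an exact p of 0.0625. The latter is the smallest p that 5 mice allow, so no difference could have reached 0.05 in this sign-flip test. The causes were not tested. Of 274 named genes, 256 kept their call under all alternatives other than changed thresholds, and none reversed. Depth limits genes near 1 CPM, for which some libraries held few or no reads.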

Other observations

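Receptors that sense microbes moved with the response. Of 24 pattern recognition genes 9 rose and 4 fell. *Tlr2*, which recognises bacterial lipoproteins, rose from 13 ± 2.60 to 47.8 ± 10.9 CPM (1.88 on the log2 scale), *Nod2*, a sensor of peptidoglycan fragments, by 0.78 and *Clec7a*, the β-glucan receptor of fungi, by 2.57, while *Tlr5*, the flagellin receptor (-0.84), *Nod1* (-0.97), *Ticam1* (-0.72) and *Nlrc5* fell. Of 33 immediate early and AP-1 genes 6 rose, among them *Ier3* (1.29) and *Maff* (1.13), and 2 fell, *Fosb* (-1.30) and *Klf2* (-1.16). Of 36 cell death genes 10 rose and 2 fell. The risen ones included the executioner of necroptosis *Mlkl* (0.96), *Gsdmd* (1.59) and *Cflar*, an inhibitor of caspase-8 (0.92). Of 30 C/EBP, STAT and related regulators 6 rose, *Cebpd* by 1.36, *Elf3* by 0.70 and *Runx1* by 0.67, and 1 fell, *Id1*.

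Of 24 epidermal kallikreins and protease inhibitors 8 rose (5 without WT5) and 5 fell, *Tmprss11e* (0.67) being among the former and *Klk5* (-1.11) among the latter. Fatty acid genes were called in 13 of 37 cases, with 8 risen and 5 fallen. *Elovl6*, which elongates palmitate, had a log2 fold change of -0.92, and *Fads3* one of 0.91. Of 39 lipase genes 8 rose and 5 fell (8 without WT3), of 36 glycolysis and glucose uptake genes 5 rose and 2 fell, and of 49 antioxidant genes 6 rose and 4 fell. The cystine transporter *Slc7a11* rose from 106 ± 11.7 to 186 ± 21.1 CPM (0.80), and *Slc2a3*, a glucose transporter, fell from 3.05 ± 1.01 to 0.526 ± 0.395 CPM (-2.56). Of 27 hair follicle and Hedgehog genes 6 rose and 7 fell, among the latter *Gli1* (-1.33), *Gli2* (-1.23) and *Lgr5* (-2.72). Of 19 clock genes 1 rose, *Bhlhe40* (0.66; 2 without WT2, WT3 or the basal library of WT2), and 3 fell, *Rora* and *Bhlhe41* among them. Of 53 S phase genes 3 rose, *Orc1* (not without WT5, 0.52, or the basal library of WT2, 0.58), *Cdt1* and *Tk1*, and 1 fell, *E2f2* (-1.50), and of 36 cell cycle inhibitor and p53 target genes 2 rose, *Ccng2* and *Gadd45b*, and 2 fell, *Trp53inp1* and *Ccnd3*. Of 12 S100 genes 4 rose, the least of them *S100a10* (0.69).

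Other motifs were searched on both strands in the same 250 bases. AP-1 (TGANTCA) was present in 9.21% of the promoters of risen, 7.72% of fallen and 4.39% of other genes, C/EBP (TTGCNNAA) in 11.6%, 10.1% and 7.32%, and the TATA box (TATAAA) in 9.21%, 10.9% and 6.3%. A sterol response motif (TCACNCCA) was present in 3.26%, 3.4% and 3.47%. Counted by gene with a promoter in the table, the AP-1 letters occurred before 7 of 14 risen late envelope and SPRR genes, all of the *Sprr2* family. In that list they occurred before 0 of 3 fallen and 2 of 17 genes not called. Among envelope, filaggrin-type and crosslinking genes they occurred before 7 of 12 fallen, 1 of 5 risen and 3 of 13 not called.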
